A study of Homo sapiens with 4 samples.

Results

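The 10 genes described here store, import, export and sense iron: the ferritin chains FTL and FTH1, the transferrin receptors TFRC and TFR2, the exporter SLC40A1, the hormone gene HAMP, the iron regulatory proteins IREB2 and ACO1, and HFE and BMP6, which act upstream of HAMP. They were read by gene symbol from the 18398 RefSeq transcripts measured in each library, and all 10 were found, each on 1 transcript. FTL was chosen by its level, because it is the highest gene in Huh1, so its levels in Huh1 and its difference between Huh1 and Huh7 are given as descriptions. The other 9 genes follow FTL by their place in iron metabolism, and all 10 were chosen with earlier results of these data known.

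Huh1 and Huh7 are established human hepatocellular carcinoma cell lines. Cells of each line were transfected with 15 nM siRNA and their RNA was sequenced at 48 h. The siRNA was CDCA8-1siRNA, which targets CDCA8, a subunit of the chromosomal passenger complex of dividing cells, or the negative control NCsiRNA. The labels give the target of each siRNA, whereas the variant, the dose and the time come from the study's methods. There were 4 libraries, 1 for each line and siRNA, so no spread between cultures could be measured and every ratio of 2 libraries below is a description without a test. The 95% intervals given with levels and ratios cover the counting of reads only.

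As background, cells take up iron bound to transferrin through the receptor encoded by TFRC and hold what they do not use inside ferritin, a shell of light (FTL) and heavy (FTH1) chains. Ferroportin, the product of SLC40A1, is the known iron exporter of mammalian cells. Hepatocytes secrete hepcidin, the product of HAMP, which binds ferroportin and has it degraded, and they raise HAMP in answer to BMP6 through a receptor complex helped by HFE and TFR2. Inside the cell, the iron regulatory proteins encoded by ACO1 and IREB2 bind a hairpin in mRNA, the iron-responsive element, when iron is scarce. Binding in the 5′UTR blocks translation, as in ferritin mRNA, and binding in the 3′UTR of TFRC mRNA keeps it from decay.

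The hairpin was looked for in the transcripts of the 10 genes, because it divides them into mRNAs that iron regulatory proteins act on at translation and at decay. The letters searched were a C, 5 bases, the loop CAGTGN and 5 bases able to pair with the 5 before the loop, G with T allowed, on the transcript strand only. In GENCODE 29 sequences, 219 of 17768 transcripts matched by RefSeq identifier held such a match, or 1.23%. Among the 10 genes, 4 held 7 matches: FTL, FTH1 and SLC40A1 carried 1 each in the 5′UTR and TFRC carried 4 in the 3′UTR. No match lay in TFR2, HAMP, IREB2, ACO1, HFE or BMP6, which says only that these letters are not in the transcripts searched. The elements are shown with the bulged C and the loop in capitals, 5′ to 3′.
FTL 5′UTR: tcttgCttcaaCAGTGTttggacggaac
FTH1 5′UTR: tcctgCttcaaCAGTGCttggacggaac
SLC40A1 5′UTR: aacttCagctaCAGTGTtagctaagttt
TFRC 3′UTR 1: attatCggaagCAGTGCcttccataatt
TFRC 3′UTR 2: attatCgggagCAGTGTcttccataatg
TFRC 3′UTR 3: tgtatCggagaCAGTGAtctccatatgt
TFRC 3′UTR 4: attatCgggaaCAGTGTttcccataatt

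Over these 28 bases the elements of the light and heavy ferritin chains differ at 2 positions, whereas that of SLC40A1 differs from each of them at 15. On GRCh38 the elements lie at chr19:48965336-48965363 on the plus strand for FTL, at chr11:61967574-61967601 on the minus strand for FTH1 and at chr2:189580661-189580688 on the minus strand for SLC40A1. Those of TFRC lie on the minus strand at chr3:196050979-196051006, chr3:196050575-196050602, chr3:196050510-196050537 and chr3:196050463-196050490. Each lies within 1 exon.

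Of the genes without a match, on GRCh38 and in GENCODE 29, TFR2 lies at chr7:100620416-100642779 (18 exons in the transcript used) and HAMP at chr19:35280716-35285143 (3 exons). IREB2 lies at chr15:78437431-78501456 and ACO1 at chr9:32384603-32454769. HFE, at chr6:26087281-26098343, and BMP6, at chr6:7726797-7881422, share a chromosome. FTL spans chr19:48965301-48966878, FTH1 chr11:61959718-61967660, SLC40A1 chr2:189560579-189583758 and TFRC chr3:196027183-196082189.

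The depth estimated from the values was 13384836 and 13193713 reads for Huh1 with NCsiRNA and CDCA8-1siRNA and 12197606 and 12266642 reads for Huh7. CDCA8 stood at 24.1 and 5.86 RPKM (read numbers divided by the length of the transcript and the depth of the library) in Huh1 and at 51.5 and 7.36 RPKM in Huh7, lower with its siRNA in both lines. All 10 hepatocyte markers were at or above 1 RPKM in all 4 libraries, although their summed level was lower with CDCA8-1siRNA, at 4722 and 3645 RPKM in Huh1 and 2744 and 1964 RPKM in Huh7, and 7 of the 10 passed limma (explained with the siRNA comparison) as lower, where 2.65% of all genes tested did. All 5 erythroid markers were under 1 RPKM in every library, as were 6 of the 7 macrophage markers, all but CD68. Of 5 stromal and endothelial markers found out of 6, summed levels were 0.148 and 0.192 RPKM in Huh1 but 141 and 187 RPKM in Huh7, mostly COL1A1 and COL1A2. The part of these markers in the results on iron genes was not tested. In bulk RNA, fewer cells that express a gene and less of its RNA per cell cannot be told apart.

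The iron genes spanned from 0.105 to 18122 RPKM. Ferritin led in all 4 libraries, FTL above FTH1. In Huh1 SLC40A1 came next and TFRC after it with both siRNAs. In Huh7 TFRC stood above SLC40A1 with NCsiRNA, at 188 against 81.0 RPKM. With CDCA8-1siRNA TFRC stood below SLC40A1, at 120 against 128 RPKM, and their counting intervals did not overlap. An order between genes also depends on the transcript lengths the authors used, which could not be recovered for TFRC or SLC40A1. The middle of the order was held by ACO1, IREB2 and BMP6. In Huh1 with NCsiRNA the intervals of these 3 overlapped in neighbouring pairs, from 29.4 to 31.6 RPKM for ACO1, from 26.4 to 29.6 RPKM for BMP6 and from 26.3 to 28.5 RPKM for IREB2, and with CDCA8-1siRNA those of ACO1 and IREB2 overlapped. At the low end the receptor TFR2 was last in Huh1, and the hormone gene HAMP was last in Huh7. Intervals of BMP6 and TFR2 overlapped in Huh7 with NCsiRNA, as did those of HFE and TFR2 in Huh7 with CDCA8-1siRNA.

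**Figure D1:**
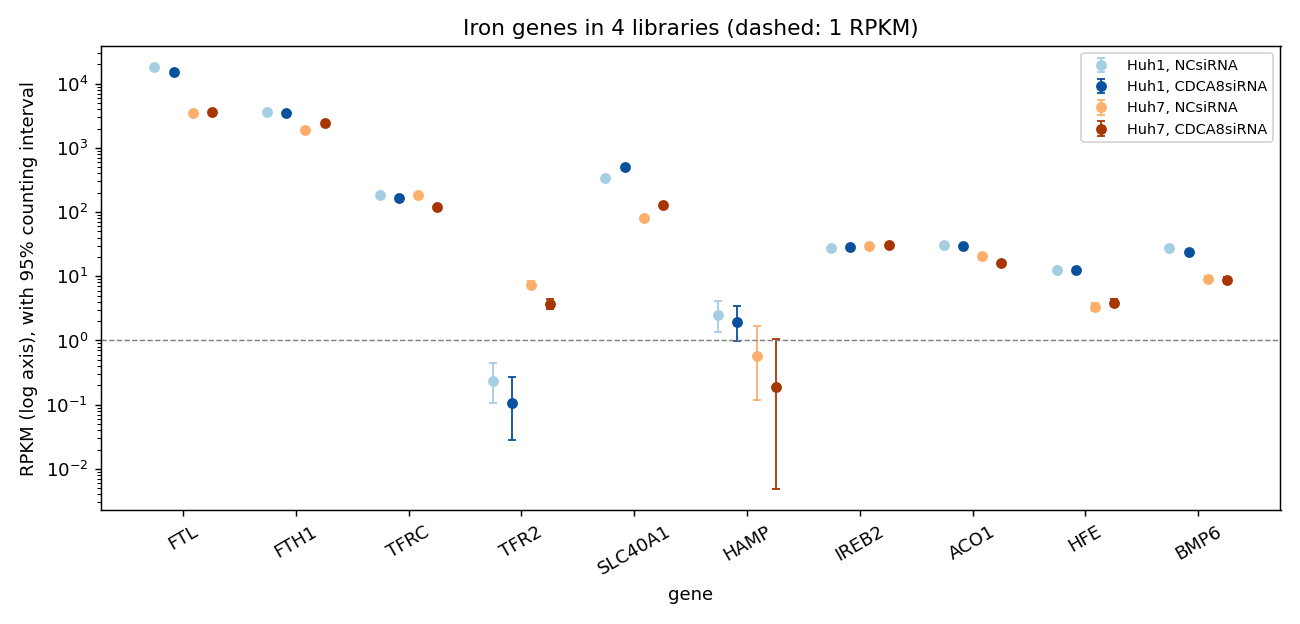
RPKM on a log axis of the 10 iron genes in the 4 libraries, 1 point per library with its 95% counting interval, and 1 RPKM as a dashed line. FTL is highest throughout, TFR2 is under 1 RPKM in both Huh1 libraries only, and HAMP is under 1 RPKM in both Huh7 libraries.

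The siRNA comparison asked which iron genes moved when CDCA8 was silenced. SLC40A1 was higher with CDCA8-1siRNA in both lines, and TFRC was lower in both. TFR2 and HAMP had ratios under 1 in both lines, within counting error except for TFR2 in Huh7. Beyond counting error, ACO1 was lower in Huh7, BMP6 was lower in Huh1 and IREB2 was slightly higher in Huh1. Each of these was within counting error in the other line, and HFE was in both. FTL was lower in Huh1 and higher in Huh7, and FTH1 was higher in Huh7, while its direction in Huh1 turned with the scaling. Quantile normalization left the log2 fold change of FTL at 0 in both lines, because it ranked the same in both libraries of a line. Of the iron genes, 9 were tested in Huh1 and none reached 2-fold on the log2(RPKM + 1) scale, where 0.494% of 10940 genes did, and likewise none of 9 tested in Huh7, where 1.57% of 11565 genes did. Genes under 1 RPKM in both libraries were not tested, which left out TFR2 in Huh1 and HAMP in Huh7. A count of 0 among 9 genes is near these shares.

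limma was fitted to log2(RPKM + 1) of the 4 libraries together. The cell line entered as a covariate, which leaves 1 residual degree of freedom. That residual holds how unlike Huh1 and Huh7 moved, not how repeated transfections vary. To it limma added 7.48 prior degrees of freedom, drawn from the variance of other genes. The SE and adjusted p of a gene therefore rest mostly on other genes, and passing does not show that the lines moved alike. By its Benjamini-Hochberg adjusted p-values, 6.39% of 12148 genes passed 0.05 for the siRNA (454 higher and 322 lower), and of the 10 iron genes 1 did. That gene was SLC40A1, with a log2 fold change of 0.61 ± 0.0753 (SE) and an adjusted p of 0.00495 from limma. Its call was lost without the filter on low values (adjusted p = 0.445), without the mean-variance trend (0.0701) and without the covariate (1.00), and it held under the other 5 settings tried, with adjusted p from 0.000126 to 0.0121. TFRC, with a log2 fold change of -0.41 ± 0.110 (SE), missed the threshold in limma, at an adjusted p of 0.0660. It passed with quantile normalization (adjusted p = 0.0258) and with upper-quartile scaling (0.0116), and over all its settings the adjusted p ran from 0.0116 to 1.00.

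**Figure D2:**
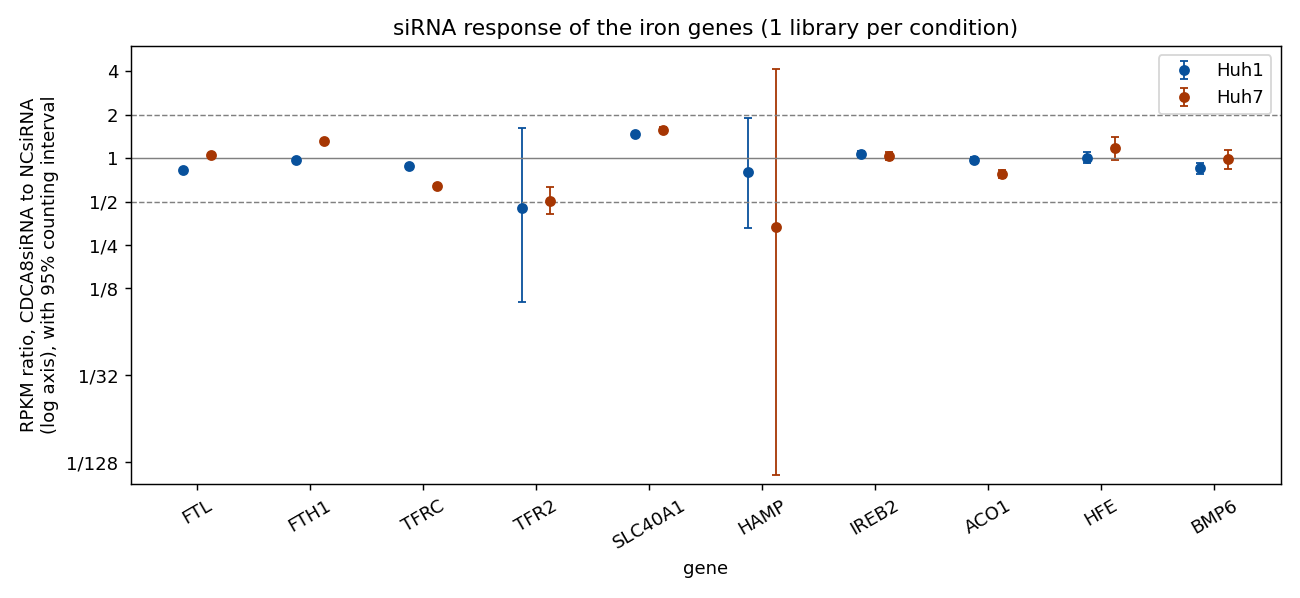
Ratio of RPKM with CDCA8siRNA to RPKM with NCsiRNA on a log axis, for each iron gene in Huh1 and in Huh7, with 95% counting intervals and dashed lines at 2-fold either way. SLC40A1 lies above 1 in both lines, TFRC lies below 1 in both, and the widest intervals are those of HAMP and of TFR2 in Huh1.

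The comparison between the lines asked how the iron genes differ between Huh1 and Huh7. Huh1 held more FTL, SLC40A1, HFE, BMP6 and HAMP, and Huh7 held more TFR2. With NCsiRNA 6 of the 10 genes differed at least 2-fold, where 27.2% of 11896 genes did, and with CDCA8-1siRNA the same 6 did, where 27.5% of 12005 genes did. Because FTL was picked for its level in Huh1, it adds nothing to that count, which leaves 5 of 9. TFR2, under 1 RPKM in both Huh1 libraries, and HAMP, under 1 RPKM in both Huh7 libraries, passed the filter only through the other line. The count is therefore a description, not an excess over the share of all genes. The median difference of all genes, Huh7 minus Huh1, was 0.14 on the log2 scale with each siRNA. Other scalings moved this median by -0.15 (quantile, CDCA8-1siRNA) to 0.15 (a common sum of all values, NCsiRNA). Of the 6 genes, FTL, TFR2 and HAMP moved furthest with the setting. The log2 difference of FTL, -2.39 with NCsiRNA and -2.05 with CDCA8-1siRNA, became -1.16 with each under quantile normalization, which rests on its ranks of 1 and 2 alone. That of TFR2, 2.77 and 2.11, became 4.49 and 4.23 with a pseudocount of 0.1 RPKM and 3.62 and 3.02 after rescaling to a common sum. That of HAMP, -1.13 and -1.31, became -1.92 and -2.82 with that pseudocount. These 6 genes kept their direction and stayed past 2-fold wherever they were tested, under each scaling and pseudocount tried, and upper-quartile scaling added FTH1 with NCsiRNA, for 7 of 10. In limma 71.2% of 12148 genes passed for the line, and 7 of the 9 genes other than FTL did, all but TFRC and IREB2. A share of that size over all genes makes a passing gene a common event. The fit holds 2 libraries a line, which are not independent cultures as far as the labels say.

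**Figure D3:**
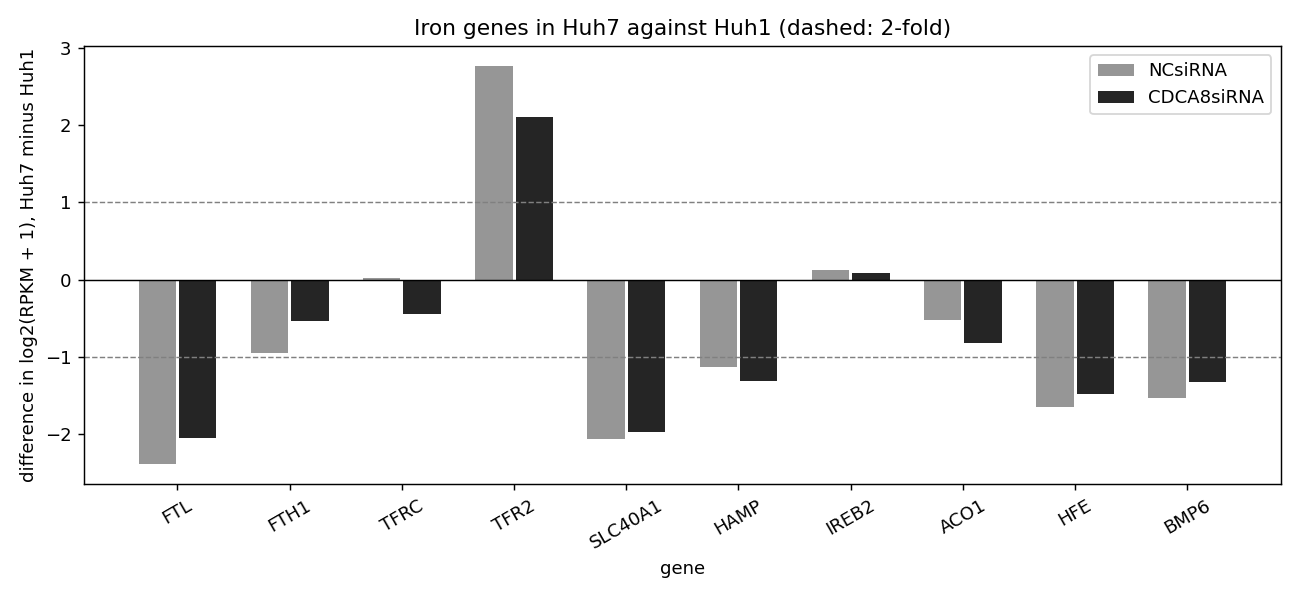
Difference in log2(RPKM + 1), Huh7 minus Huh1, for each iron gene with NCsiRNA (grey) and with CDCA8siRNA (black), with dashed lines at 2-fold. TFR2 is the gene that rises above the upper line, FTL, SLC40A1, HAMP, HFE and BMP6 lie below the lower line with both siRNAs, and TFRC lies at 0.03 with NCsiRNA and at -0.44 with CDCA8siRNA.

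Among the ferritin genes, FTL is the light chain, which helps the shell take up and mineralize iron. Its level was 18122 RPKM in Huh1 with NCsiRNA, 15050 RPKM in Huh1 with CDCA8-1siRNA, 3457 RPKM in Huh7 with NCsiRNA and 3622 RPKM in Huh7 with CDCA8-1siRNA. It was the first gene of all in both Huh1 libraries and the second in both Huh7 libraries, behind GAPDH with NCsiRNA and behind ACTB with CDCA8-1siRNA. It made up 3.90% and 3.31% of all RPKM in Huh1 and 0.817% and 0.869% in Huh7. The next genes in Huh1 were AKR1B10, at 5758 and 5427 RPKM, and, with NCsiRNA, AKR1C1, at 4497 RPKM, a pair of aldo-keto reductases. Relative to NCsiRNA the level of FTL with CDCA8-1siRNA was 0.830 (0.825 to 0.836) in Huh1 and 1.05 (1.03 to 1.06) in Huh7. A log2 fold change as low as that in Huh1 was shared by 9.31% of genes, and one as high as that in Huh7 by 45.1%. Over both lines, limma gave FTL an adjusted p of 0.479.

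FTH1 is the heavy chain, the ferroxidase that oxidizes iron as it enters ferritin. It stood at 3628 and 3543 RPKM in Huh1 with NCsiRNA and CDCA8-1siRNA and at 1871 and 2450 RPKM in Huh7, so the Huh1 libraries were above those of Huh7. Its ratio with CDCA8-1siRNA to NCsiRNA was 0.977 (0.965 to 0.988) in Huh1 and 1.31 (1.29 to 1.33) in Huh7, and limma gave an adjusted p of 0.294. The direction in Huh1 turned under quantile normalization, where its log2 fold change was 0.13 against -0.03, so no direction is given for Huh1. In Huh7 it was 0.64 under that normalization against 0.39. Between the lines, its log2 difference in limma was -0.74 ± 0.0910 (SE, adjusted p = 0.000101), a call lost without the filter on low values (0.139). Huh7 was lower in both pairs of libraries, by 0.95 with NCsiRNA and 0.53 with CDCA8-1siRNA on the log2(RPKM + 1) scale, less than 2-fold. The first was -1.05 with upper-quartile scaling, past 2-fold, and -0.50 with quantile normalization, which left the second at 0 because FTH1 ranked 4 in both libraries. FTL exceeded FTH1 by 4.99 and 4.25 times in Huh1 and by 1.85 and 1.48 times in Huh7 on the RPKM scale, so the light to heavy ratio was higher in Huh1 and lower with CDCA8-1siRNA in both lines.

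Both ferritin mRNAs have processed copies in the genome, with 25 FTH1 and 16 FTL pseudogenes numbered in GENCODE 29. Of the 50-base stretches of the FTH1 transcript 40.4% occur identically in transcripts of 15 other genes, and of those of FTL 18.3% occur in 2 other genes. How the authors counted reads that fit several places is not given in the sources used here, so the levels of both chains are uncertain by the share of such reads. For TFRC, TFR2, SLC40A1, HAMP and BMP6 no stretch of that length was shared, and for IREB2, ACO1 and HFE 0.127%, 0.553% and 1.95% were.

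The genes whose pattern over the 4 libraries was most like that of FTL were CTSC, SRXN1, SQRDL, ETFB and IDH1. They had the smallest root mean square distance of log2(RPKM + 1), centred for each gene over 4 libraries, among 6507 genes with a mean of at least 10 RPKM, at 0.0378 to 0.0748. CTSC, the lysosomal protease cathepsin C, stood at 26.8 and 23.6 RPKM in Huh1 and 4.30 and 4.62 RPKM in Huh7. SRXN1, which encodes sulfiredoxin and repairs oxidized peroxiredoxins, stood at 287 and 222 RPKM in Huh1 and 55.0 and 56.0 RPKM in Huh7. IDH1, the cytosolic isocitrate dehydrogenase, stood at 806 and 711 RPKM in Huh1 and 173 and 160 RPKM in Huh7. Likeness over 4 libraries rests mainly on the difference between the lines.

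**Figure D4:**
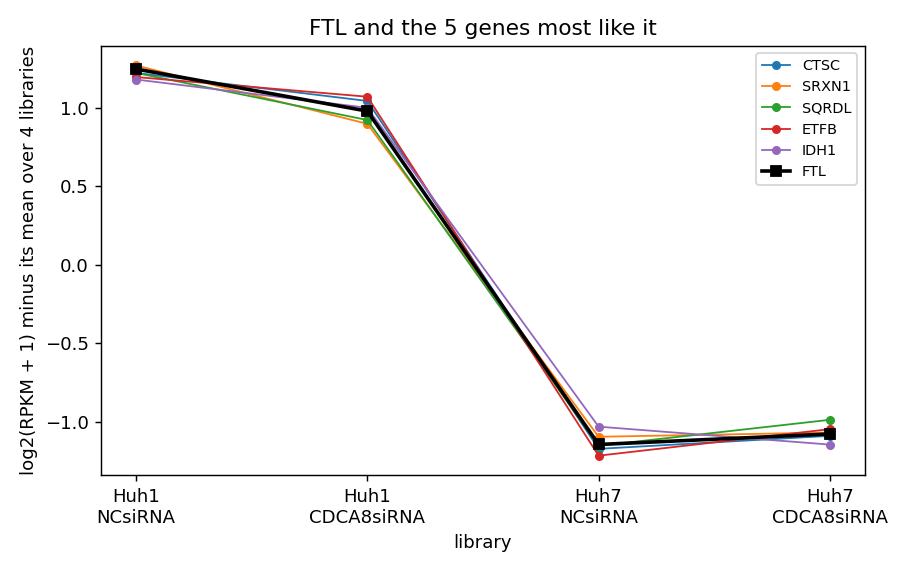
log2(RPKM + 1) minus its mean over the 4 libraries, for FTL (black squares) and the 5 genes with the smallest distance to it (circles), with lines drawn only to join the points of a gene. All 6 genes are above their mean in both Huh1 libraries and below it in both Huh7 libraries.

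TFRC encodes transferrin receptor 1, the main port of entry for transferrin-bound iron, and is the gene with elements in its 3′UTR. It stood at 185 and 164 RPKM in Huh1 with NCsiRNA and CDCA8-1siRNA and at 188 and 120 RPKM in Huh7. Of these values 3 lie close together, and the library of Huh7 with CDCA8-1siRNA was the lowest. Its ratio was 0.886 (0.864 to 0.910) in Huh1 and 0.640 (0.621 to 0.659) in Huh7. In Huh7, 2.71% of genes had a log2 fold change as low as its -0.64, and in Huh1 16.7% of genes had one as low as its -0.17. With NCsiRNA the lines did not differ beyond counting, at a Huh7 to Huh1 ratio of 1.02 (0.992 to 1.04), whose direction turned under upper-quartile scaling. With CDCA8-1siRNA the ratio was 0.735 (0.713 to 0.757).

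TFR2, transferrin receptor 2, is a hepatocyte protein that senses loaded transferrin. It was at 7.38 RPKM in Huh7 with NCsiRNA and 3.75 RPKM with CDCA8-1siRNA, on 260 and 133 reads. In Huh1 it was at 0.233 and 0.105 RPKM, on 9 and 4 reads, so both Huh1 libraries lay far below both Huh7 libraries. The Huh7 to Huh1 ratio was 31.7 (16.4 to 70.1) with NCsiRNA and 35.8 (13.6 to 133) with CDCA8-1siRNA, the widest gap among the 10 genes. In Huh7 the ratio with CDCA8-1siRNA to NCsiRNA was 0.509 (0.410 to 0.629), and its log2 fold change of -0.82 stayed inside the 2-fold limit, where 1.31% of genes were as low. In Huh1 the ratio was 0.451 with an interval from 0.101 to 1.62, so a difference was not detectable at this depth. limma gave TFR2 a log2 fold change of -0.49 ± 0.188 (SE, adjusted p = 0.167) for the siRNA.

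SLC40A1 encodes ferroportin, and its level was highest in Huh1. It stood at 342 RPKM with NCsiRNA and 505 RPKM with CDCA8-1siRNA in Huh1, and at 81.0 and 128 RPKM in Huh7. Each Huh1 value lay above both Huh7 values, and within each line the CDCA8-1siRNA library was the higher. The ratio with CDCA8-1siRNA to NCsiRNA was 1.47 (1.44 to 1.50) in Huh1 and 1.58 (1.51 to 1.65) in Huh7. On the log2 scale these were 0.56 and 0.65, against SDs over all genes of 0.261 and 0.347, and 2.85% and 3.80% of genes were as high. The difference between the responses, 0.09, is small beside the SD of that difference over 10357 genes, 0.273. Between the lines, SLC40A1 had a Huh7 to Huh1 ratio of 0.236 (0.228 to 0.245) with NCsiRNA and 0.253 (0.246 to 0.261) with CDCA8-1siRNA. Macrophages also express SLC40A1 strongly, and the macrophage marker CD68, a lysosomal protein found in other cells too, was at 23.3 and 16.5 RPKM in Huh1 and 3.71 and 3.73 RPKM in Huh7, while CD14, CD163, MARCO, CSF1R, PTPRC and C1QA were under 1 RPKM in all 4 libraries.

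HAMP encodes hepcidin and was close to the limit of detection in these hepatoma lines. Its values of 2.46 and 1.96 RPKM in Huh1 and 0.577 and 0.191 RPKM in Huh7 rest on 14, 11, 3 and 1 reads, if the transcript length used was 426 bases. That is the shortest length searched at which all 4 values come out whole. The Huh1 libraries were higher than those of Huh7, with Huh7 to Huh1 ratios of 0.235 (0.0433 to 0.843) and 0.0978 (0.00227 to 0.673). No response to the siRNA was detectable at this depth, with ratios of 0.797 (0.327 to 1.89) in Huh1 and 0.331 (0.00631 to 4.13) in Huh7. limma gave an adjusted p of 0.311 for the siRNA.

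Of the 10 genes, IREB2 had the narrowest range over the 4 libraries relative to its level. It encodes the iron regulatory protein IRP2, the form removed by protein decay when iron is plentiful, and stood at 27.4 and 29.1 RPKM in Huh1 and 29.9 and 30.9 RPKM in Huh7. Its ratios were 1.06 (1.00 to 1.12) in Huh1 and 1.03 (0.977 to 1.10) in Huh7, with an adjusted p of 0.723 from limma for the siRNA and 0.340 for the line. ACO1 encodes IRP1, which is the cytosolic aconitase when it carries an iron-sulfur cluster. It stood at 30.5 and 29.7 RPKM in Huh1 and 21.0 and 16.3 RPKM in Huh7, lower in both Huh7 libraries. Its ratio with CDCA8-1siRNA to NCsiRNA was 0.974 (0.925 to 1.02) in Huh1 and 0.778 (0.726 to 0.832) in Huh7, and limma gave an adjusted p of 0.346 for the siRNA. Between the lines its log2 difference in limma was -0.67 ± 0.108 (SE, adjusted p = 0.000549), a call lost without the filter on low values (0.0753).

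HFE, the protein altered in the common form of hereditary hemochromatosis, stood at 12.5 and 12.7 RPKM in Huh1 and 3.32 and 3.89 RPKM in Huh7. The ratios of Huh7 to Huh1 were 0.265 (0.227 to 0.308) and 0.307 (0.266 to 0.353), and the siRNA ratios were 1.01 (0.919 to 1.11) in Huh1 and 1.17 (0.972 to 1.41) in Huh7, within counting error in both. BMP6, the bone morphogenetic protein that signals iron stores to hepatocytes, stood at 27.9 and 23.7 RPKM in Huh1 and 9.00 and 8.85 RPKM in Huh7. These rest on 1161, 971, 341 and 337 reads, if the transcript length used was 3105 bases. Huh7 was lower, at ratios of 0.322 (0.285 to 0.364) and 0.373 (0.329 to 0.423). The siRNA ratio of BMP6 was 0.848 (0.778 to 0.925) in Huh1 and 0.983 (0.843 to 1.15) in Huh7. Neither gene passed limma for the siRNA, at adjusted p of 0.673 for HFE and 0.529 for BMP6, and both passed it for the line, with log2 differences of -1.57 ± 0.115 (SE) and -1.43 ± 0.106 (SE).

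Other genes of the same pathways were taken from lists, which were chosen with earlier results of these data known. Over all 12148 genes in limma the median log2 fold change for the siRNA was 0.03. No gene passed for the siRNA without the filter on low values or without the covariate, and 45 did without the trend. Every siRNA call of a list gene below is therefore lost without that filter or without the covariate. Of the list on uptake, reduction and endosomal transport 13 of 16 genes found were tested, with a median of -0.01, none passed as higher, where 3.74% of all genes did, and 2 passed as lower, where 2.65% did. TF, transferrin itself, fell with a log2 fold change of -0.53 ± 0.0754 (SE, limma adjusted p = 0.00844), at 675 and 503 RPKM in Huh1 and 628 and 403 RPKM in Huh7. SLC39A14, a carrier for iron not bound to transferrin, fell by 0.41 on the log2 scale (adjusted p = 0.0313). HP, haptoglobin, which binds free hemoglobin, was 13.4 and 6.91 RPKM in Huh1 and under 1 RPKM in Huh7, while HPX, the heme carrier hemopexin, was 3.54 and 2.05 RPKM in Huh1 and 33.4 and 42.1 RPKM in Huh7. STEAP3, the ferrireductase that acts after transferrin uptake, was higher in Huh7. Its log2 differences were 1.02 with NCsiRNA and 1.06 with CDCA8-1siRNA, just past 2-fold, and other scalings are not given for it. STEAP1 was at least 2-fold lower in Huh7 with NCsiRNA.

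Of the 6 listed genes on ferritin relatives and turnover, 4 were tested, all with negative values and a median of -0.29. None passed, where 6.39% of all genes did. FBXL5, the iron-sensing subunit that sends IRP2 to decay, stood at 2.95 and 2.53 RPKM in Huh1 and 17.9 and 13.2 RPKM in Huh7. Likewise, none of the 4 tested genes that partner export passed for the siRNA, beside 6.39% of all genes, and their median was -0.04. Among them CP, ceruloplasmin, the ferroxidase that works with ferroportin, stood at 164 and 137 RPKM in Huh1 and 21.9 and 25.3 RPKM in Huh7, FLVCR2 at 4.71 and 2.59 RPKM in Huh7 and ABCG2 lower in Huh7. Of 5 other mRNAs listed as reported to carry an iron-responsive element, 4 were tested, with a median of 0.31, and 1 passed as higher, beside 3.74% of all genes. This was CDC42BPA, a kinase gene, with a log2 fold change of 0.65 ± 0.103 (SE, limma adjusted p = 0.0125). The hairpin letters searched above were found in 2 of the 5, ALAS2 and CDC14A, and not in the transcript of CDC42BPA. EPAS1, the hypoxia factor HIF-2α, stood at 55.7 and 62.4 RPKM in Huh1 and 18.5 and 17.1 RPKM in Huh7.

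The list of genes upstream of hepcidin held 16 tested genes of 18 found, with a median of -0.03 for the siRNA. Of these 1 passed, where 6.39% of all genes did, so the count is near that share. That was CEBPA, a liver transcription factor that drives HAMP, which fell in both lines, at 94.4 and 47.2 RPKM in Huh1 and 68.9 and 30.3 RPKM in Huh7 (log2 fold change -1.07 ± 0.0906 (SE), limma adjusted p = 0.00196). The summed level of hepatocyte markers given with the depth was lower in the same libraries, and its part in this was not tested. IL6R, the interleukin-6 receptor, was at 22.1 and 33.7 RPKM in Huh1 and 0.530 and 0.680 RPKM in Huh7, whereas HFE2, hemojuvelin, and the ligands BMP2 and BMP4 were higher in Huh7. BMP2 stood at 10.1 and 13.8 RPKM in Huh1 and 59.0 and 69.2 RPKM in Huh7, and BMP4 at 4.17 and 3.91 RPKM against 45.0 and 34.1 RPKM. SMAD1, which carries the signal, was at 9.08 and 8.22 RPKM in Huh1 and 1.27 and 1.10 RPKM in Huh7. Of 7 BMP and SMAD target genes, with a median of -0.12, 1 passed for the siRNA as lower, where 2.65% of all genes did. It was ID2, a dominant-negative transcription factor, at 51.1 and 36.4 RPKM in Huh1 and 153 and 75.8 RPKM in Huh7 (limma adjusted p = 0.0146). ATOH8 was lower in Huh7, at 0.267 and 0.307 RPKM against 2.56 and 2.19 RPKM.

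For heme synthesis and breakdown 12 of 13 genes were tested, with a median of 0.07 for the siRNA. Of these 1 passed as higher, where 3.74% of all genes did. HMOX1, heme oxygenase 1, which frees iron from heme, rose, at 206 and 283 RPKM in Huh1 and 6.39 and 16.2 RPKM in Huh7 (log2 fold change 0.83 ± 0.157 (SE), limma adjusted p = 0.0216). BLVRB, biliverdin reductase B, was at 118 and 104 RPKM in Huh1 and 32.9 and 52.0 RPKM in Huh7. With NCsiRNA CPOX was higher in Huh7, at a log2 difference of 1.07, just past 2-fold, and FECH was lower there, at -1.30. Other scalings are not given for these genes. All 16 genes on mitochondrial iron and iron-sulfur clusters were tested, with a median of -0.07. Of these 1 passed as higher, where 3.74% of all genes did. It was ISCA1, a carrier of such clusters (log2 fold change 0.45 ± 0.0937 (SE), limma adjusted p = 0.0293). SLC25A37, the mitochondrial iron importer mitoferrin-1, stood at 1.96 and 1.43 RPKM in Huh1 and 10.9 and 12.1 RPKM in Huh7.

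Oxidant response genes, which the factor NRF2 induces together with both ferritin chains, differed widely between the lines. Of 9 such genes found, 8 were at least 2-fold lower in Huh7 with each siRNA and 1, PIR, was higher, where 10.2% of all genes were lower by that much with NCsiRNA and 10.1% with CDCA8-1siRNA. The list had a median of -2.65 on the log2 scale with NCsiRNA and -2.31 with CDCA8-1siRNA, beside 0.14 for all genes. Because the list was chosen with earlier results of these data known, its count and medians are descriptions, not an excess over all genes. GCLC, a subunit of the enzyme that starts glutathione synthesis, stood at 170 and 162 RPKM in Huh1 and 27.2 and 31.8 RPKM in Huh7, and SLC7A11, the cystine importer, at 53.0 and 63.3 RPKM against 4.65 and 6.85 RPKM. OSGIN1 was at 83.7 and 67.3 RPKM in Huh1 and 12.5 and 17.4 RPKM in Huh7. For the siRNA the median of this list was 0.07, and HMOX1 was the 1 that passed, as higher, where 3.74% of all genes did. SRXN1, which is on this list, is also among the 5 genes most like FTL. That likeness rests mainly on the difference between the lines, and FTL was chosen by its level in Huh1. The overlap is therefore a description, and the part of NRF2 in the level of FTL was not tested.

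**Figure D5:**
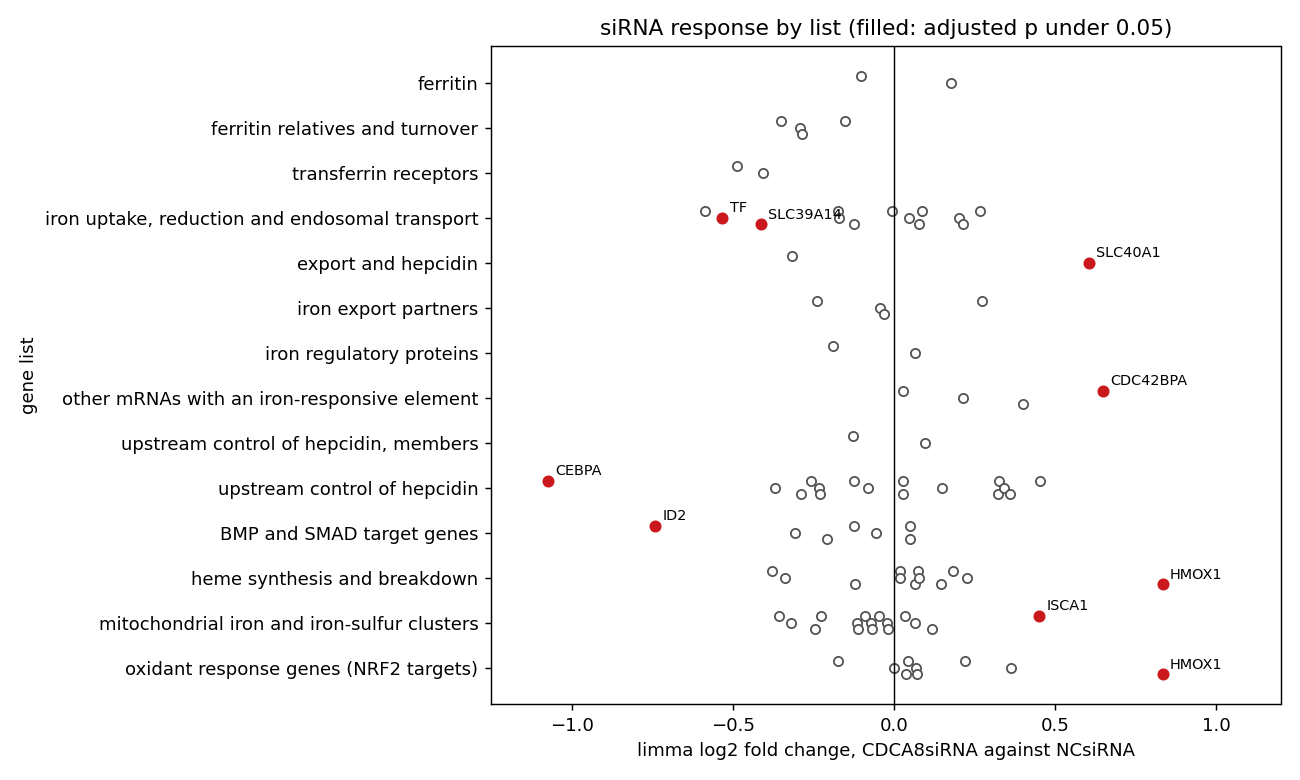
Log2 fold change for the siRNA from limma, fitted over both cell lines, with 1 point per tested gene and 1 row per list; filled points passed an adjusted p of 0.05 and are named. SLC40A1 is the filled point among the 10 iron genes, and the passing points of the other lists fall on both sides of 0.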

How the data were processed

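RNA-seq libraries (Illumina TruSeq, total RNA) of Huh1 and Huh7 cells were grouped by cell line and siRNA from their labels, 1 library a group. The authors deposited 1 value per RefSeq transcript and library without naming a unit. Multiplied by GENCODE length, values of 403 of 12314 transcripts with at least 20 reads in a library were whole numbers of 1 unit in all 4 libraries (tolerance 0.001 of a read), and the others were not. From these the deposited values were taken as RPKM and the depth was estimated. The submitters' processing notes name CASAVA 1.8.2, TopHat2 2.0.9 and hg19. The program, annotation and filters behind the values are not given in the sources used here. Lengths, positions and sequences came from GENCODE 29 on GRCh38, matched by RefSeq identifier for 17768 of 18398 rows. Values of TFR2, HAMP and BMP6 were whole reads (tolerance 0.03 of a read) at some length from 200 to 12000 bases, and the shortest such length was used. A search over so many lengths can meet such a length by chance. That of TFR2, 2888 bases, equals its GENCODE length, while those of HAMP and BMP6, 426 and 3105 bases, do not. The reads of the other 7 genes are approximate, from GENCODE lengths. Intervals on levels are exact Poisson and those on ratios exact binomial.

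Fold changes were differences of log2(RPKM + 1), which understate changes of low genes, leaving out genes under 1 RPKM in every library compared, and were called at 2-fold. limma 3.58.1 in R 4.3.3 (lmFit, eBayes with trend) was fitted to all 4 libraries with line and siRNA as terms, with Benjamini-Hochberg adjustment over all genes. The test named by the study could not be repeated, since its design is not described. No count test was applied. The labels give no separate cultures, so p-values do not measure variation between them. Steps were tested on simulated libraries.

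Named were the 10 genes, CDCA8, the markers, list genes called 2-fold in any pair of libraries or passing limma for the siRNA (at most 6 a list, by size of the mean siRNA change), the 5 genes most like FTL and the highest genes of each library. The genes and lists were chosen with earlier results of these data known. A gene of the lists is not reported here. Alternatives were another pseudocount, filter or scaling, and limma without trend or covariate. Python 3.11.15 with numpy 2.4.6, pandas 2.3.3, scipy 1.17.1 and matplotlib 3.10.9 was used.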

Additional observations from a re-analysis of the deposited data

Results flagged for a closer look

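For 3 genes a contrast had values of opposite sign in the groups set side by side, and with 1 library per group the difference was not tested. For FTH1 and TFRC 1 of the signs turned with the scaling, so opposite directions are not shown. FTL was lower with CDCA8-1siRNA in Huh1 and higher in Huh7, and its log2 fold change in Huh7 exceeded that in Huh1 by 0.33. Quantile normalization left FTL at 0 in both lines. For FTH1 the same difference was 0.42, with the direction in Huh1 resting on a log2 fold change of -0.03 that quantile normalization turned to 0.13. Over all genes such differences had an SD of 0.273, and 17.3% of genes differed by as much as FTL and 10.3% by as much as FTH1. TFRC was level between the lines with NCsiRNA (log2 0.03, Huh7 minus Huh1, and -0.07 with upper-quartile scaling) and lower in Huh7 with CDCA8-1siRNA (-0.44), a difference of -0.47.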

How the results depend on the processing

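The limma fit pairs the libraries by cell line, and no pairing by replicate could be made, nor a replicate left out, because each group holds 1 library. Of genes changed 2-fold by the siRNA, counts of 54 in Huh1 and 182 in Huh7 became 164 and 422 with a pseudocount of 0.1 RPKM and 114 and 341 after rescaling to a common sum. For the siRNA in limma, 776 genes and 1 iron gene became 1260 and 4 with quantile normalization, 1327 and 2 with upper-quartile scaling, 45 and 0 without the trend, 0 and 0 without the filter and 0 and 0 without the covariate. For the line, 8654 genes and 8 iron genes became 5433 and 5 without the filter, which lost FTL, FTH1 and ACO1. The 4 iron genes under quantile normalization were FTH1, TFRC, TFR2 and SLC40A1. The share of called genes that were higher with the siRNA in Huh1, 64.8%, was 52.4% with quantile normalization and 75.4% after rescaling to a common sum. In Huh7 55.5% became 66.0% after that rescaling, and between the lines 62.6% and 63.3% became 52.2% and 52.7% with quantile normalization. Of 158 limma values of single iron genes under other settings 147 kept their direction and side of the threshold and none turned. Of 160 ratios of 2 libraries 103 moved by less than counting error, and none that was called turned. No depth limit applies to the high genes, whereas HAMP in all libraries and TFR2 in Huh1 rest on 14 reads or fewer.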
